A study of Mus musculus with 18 samples.

Results

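The IL-1 and IL-18 family was followed in bone marrow progenitors of lupus-prone and control mice through 10 genes, taken by symbol. They were the ligands Il1b and Il18, the receptor chains Il1r1, Il1rap, Il1rl1, Il18r1 and Il18rap, and the inhibitors Il1r2, Il1rn and Il18bp. All 10 were present among the 19780 genes of the LSK table and among the 18428 genes of the CMP table. LSK (Lin-Sca-1+c-Kit+ cells) hold the haematopoietic stem and multipotent progenitor cells, and CMPs are common myeloid progenitors.

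IL-1b, the product of Il1b, and IL-18 are inflammatory cytokines made as inactive precursors, which caspase-1 cleaves inside protein complexes called inflammasomes. Each binds a receptor chain of its own (IL1R1 or IL18R1), after which an accessory chain (IL1RAP or IL18RAP) joins and MyD88 and IRAK kinases carry the signal to NF-kB. IL1R2 is a decoy that binds IL-1 without signalling, IL1RN is a competing ligand that blocks IL1R1, and IL18BP captures free IL-18. In the bone marrow, IL-1 is known for driving stem cells towards myeloid output.

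RNA of sorted cells from female mice was sequenced in 18 samples, 3 in each of 6 groups. NZBW/F1 mice come from a cross of NZB/OlaHsd with NZW/OlaHsd, are lupus-prone by genotype and develop disease spontaneously: F1-P mice were 12 weeks old and had no disease yet, whereas F1-L mice were 28 to 36 weeks old and had proteinuria. C57BL/6 controls were 12 weeks (B6-Y) and 28 to 36 weeks old (B6-O), and no mouse was treated or carried a transgene. LSK were measured in all 4 groups and CMPs in F1-P and F1-L. Age and disease both changed from F1-P to F1-L and cannot be told apart from that comparison alone. The labels do not tie samples to separate mice, and the study describes several mice per CMP sample, so p-values measure only the spread between these samples.

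Levels are given as CPM, reads per 1e+06 of a library size that the authors had scaled. Read totals ranged from 23772252 to 28493747 in LSK and from 20001328 to 24761060 in CMPs. The LSK and CMP tables were normalised separately, and levels set across them below carry no test. A change was called where limma gave an adjusted p of at most 0.05 and the fold change exceeded 1.5, with fold changes on the log2(CPM + 1) scale, which understates those of low genes. In bulk samples, fewer cells of a type and less RNA per cell cannot be told apart. Whether groups overlapped is stated as a description of the values, since the share of all genes without overlap is not given here.

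The labels were checked against marker genes before the results. Kit was at 257 to 657 CPM in LSK and 416 to 668 CPM in CMPs. Ly6a, which encodes Sca-1, was at 35.5 to 879 CPM in LSK and at 1.14 to 6.7 CPM in CMPs, although the methods list Sca-1+ for both sorts. Over the 2141 genes outside the immunoglobulin loci that separated F1-P from B6-Y, the 3 F1-L samples lay 0.81, 0.82 and 0.84 of the way from B6-Y to F1-P, and the 3 B6-O samples lay at -0.05, -0.04 and 0.08. The older samples, which had not chosen those genes, thus sat with their labelled strain.

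Transcripts of mature cells were also present. The summed level of 11 mature neutrophil genes, led by S100a9 in every sample, was 12373, 4905 and 1983 CPM in F1-L LSK and 301, 526 and 1281 CPM in F1-P LSK. It was 499, 5441 and 485 CPM in B6-Y and 1736, 832 and 10719 CPM in B6-O. In CMPs it ran the other way, with 315, 6453 and 8442 CPM in F1-P and 85.8, 64.2 and 431 CPM in F1-L. All 11 genes had reads in all 18 samples, Ly6g among them, although Gr-1+ cells had been gated out. Single libraries stood apart from their groups. For B6-O replicate 3 the chi-square per degree of freedom between it and replicates 1 and 2 was 197 and 230, against 23.7 between those 2. For F1-P replicate 1 in LSK it was 193 and 176, against 57.8 between the other F1-P samples, and immunoglobulin genes took 19.2% of its reads against 36.6% and 35.1%. For F1-P replicate 1 in CMPs it was 57.3 and 118, against 28.6. For F1-L replicate 2 in CMPs it was 32.6 and 27.4, against 9.87. Values without B6-O replicate 3 are given beside most strain tests below, and those without CMP F1-P replicate 1 where a call changed. Without F1-P replicate 1 the same members were called in every LSK comparison (3 between F1-P and B6-Y, against 16% of all genes, and 2 over both ages, against 20.8%), and changed calls among the pathway lists and cluster neighbours are given with those lists.

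Compared per kilobase of exon, Il18rap had the highest mean level of the 10 genes in each LSK group, from 12.9 ± 0.766 CPM per kb in F1-P to 19.9 ± 3.41 in B6-Y (SD, n = 3). Its spread overlapped that of Il1b in F1-L (14.8 ± 3.92 against 13 ± 7.14) and that of Il18 in B6-O (15.6 ± 3.08 against 12.6 ± 2.06). Il1rn had the lowest in each LSK group, from 0.204 to 1.04 CPM per kb. Il1r1 ranked second in B6-Y with 14.3 ± 1.41 CPM per kb, within the spread of Il1r2 with 12.8 ± 8.6, and in F1-P it followed Il18rap, Il18r1, Il1rl1 and Il18 with 3.61 ± 0.81. In CMPs Il1rl1 led F1-L with 11.1 ± 2.13 CPM per kb, and Il1b led F1-P with 11.4 ± 8.91. The spread of Il1b there overlapped that of Il1rl1, which followed with 7.8 ± 2.96 CPM per kb.

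**Figure D1:**
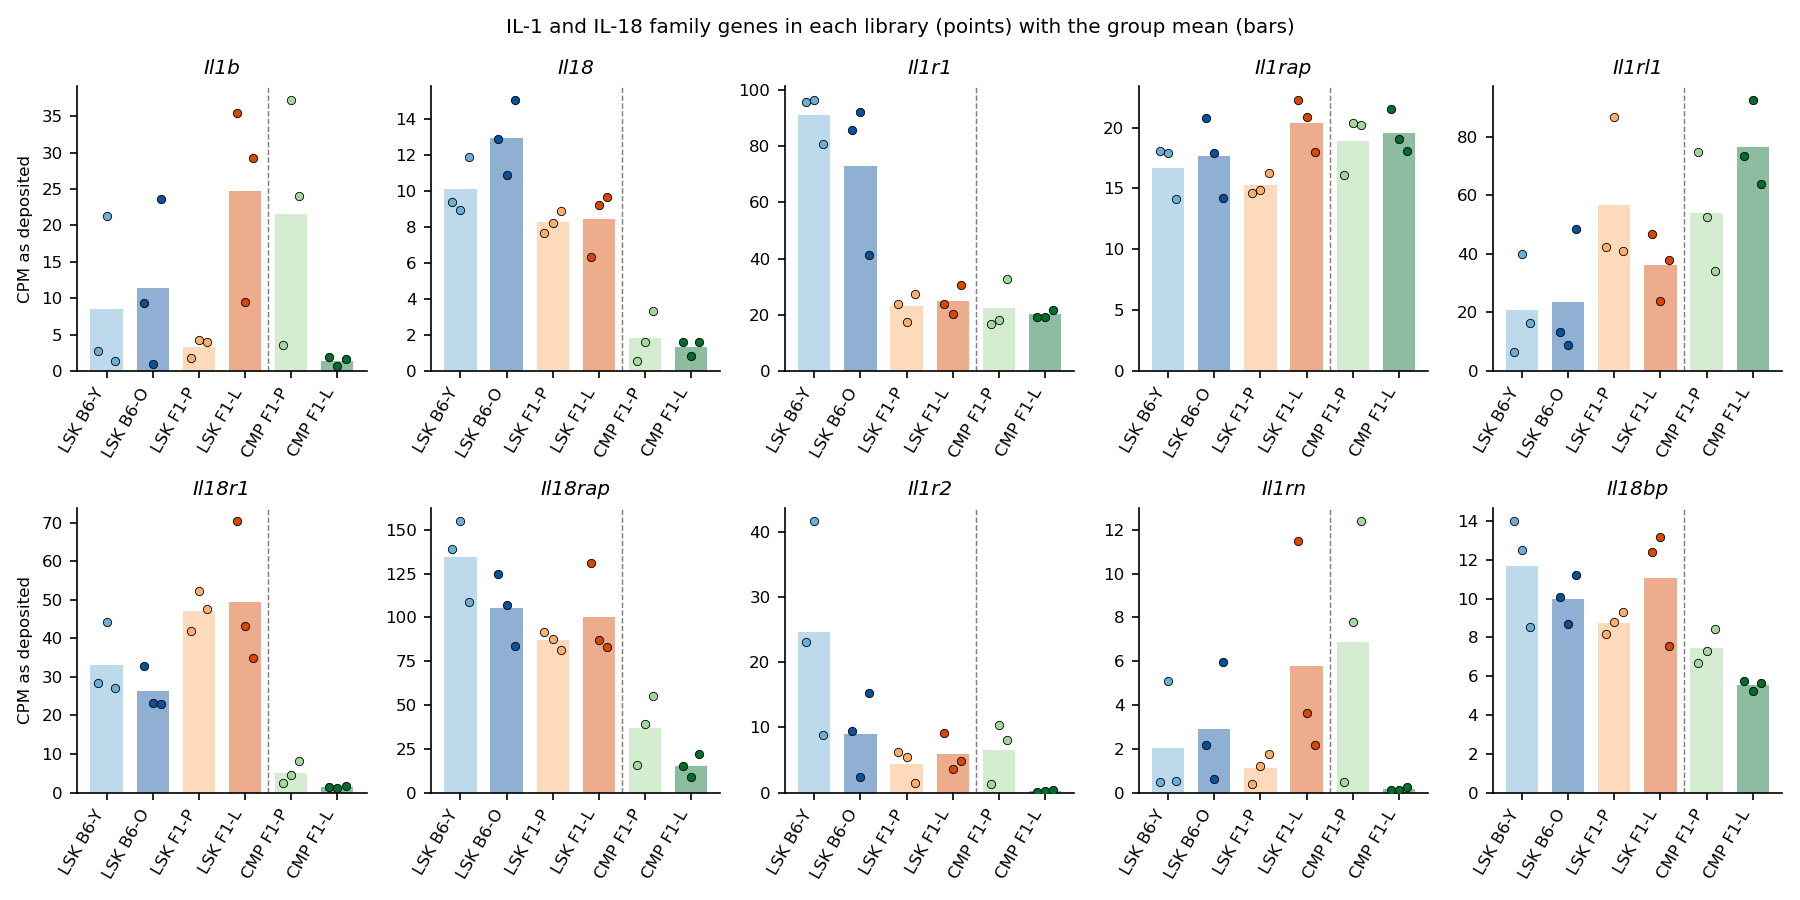
Level of each gene (CPM as deposited, linear axis from 0) in every sample; points are samples, bars are group means, n = 3 per group, and the dashed line separates the LSK from the CMP table. Il1r1 lies at 41.2 CPM or more in all 6 C57BL/6 LSK samples and at 30.6 CPM or less in the 6 NZBW/F1 LSK samples, whereas the Il1b values of B6-Y and B6-O are widely spread.

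The receptors gave the clearest difference between the strains. Il1r1, the signalling receptor of IL-1 (chr1:40225080-40317257, plus strand, GRCm38), was at 95.7, 96.6 and 80.7 CPM in B6-Y and at 24, 17.4 and 27.5 CPM in F1-P. At the older age it was at 85.7, 92.1 and 41.2 CPM in B6-O and at 24, 20.3 and 30.6 CPM in F1-L. No NZBW/F1 sample reached the lowest C57BL/6 sample at either age, and the low B6-O value was that of replicate 3.

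Il1r1 was 3.89-fold lower in F1-P than in B6-Y (log2 -1.96, 95% interval -2.39 to -1.53, adjusted p = 0.000419, limma). F1-L against B6-O, which shares no sample with that comparison, gave a level 2.73-fold lower (log2 -1.45, -2.20 to -0.69, adjusted p = 0.0298, limma). That second call did not hold when any single sample other than B6-O replicate 3 was left out (adjusted p 0.0733 to 0.124, limma). Leaving that replicate out gave a log2 difference of -1.81 (adjusted p = 0.00154, limma). Fitted over both ages, Il1r1 was 3.25-fold lower in NZBW/F1 (log2 -1.70, -2.14 to -1.27, adjusted p = 5.92e-05, limma), or -1.88 without that replicate (adjusted p = 2.73e-06). The 2 age groups did not separate within either strain, with a log2 difference of 0.12 between F1-L and F1-P (-0.38 to 0.62) and of -0.39 between B6-O and B6-Y (-1.09 to 0.31), or -0.03 without B6-O replicate 3 (-0.36 to 0.30).

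Transcripts of other cells moved with the same strain contrast. The sum of 8 B and plasma cell genes, led by Jchain and with reads of all 8 in every LSK sample, was 14412, 36933 and 33369 CPM in F1-P and 9554, 9482 and 12560 CPM in F1-L. It was 930, 2065 and 1928 CPM in B6-Y and 416, 277 and 2545 CPM in B6-O, so every NZBW/F1 sum exceeded every C57BL/6 sum. Over both ages 7 of the 8 genes were called higher in NZBW/F1 (median log2 1.98), against 19% of all genes. Of 9 genes that mark the progenitor gate, 4 were called lower (Cd34, Hlf, Meis1 and Flt3) and 1 higher (Ly6a), with a median log2 difference of -0.47. Leaving out B6-O replicate 3, limma called 7 of the 8 (median 2.18), and 5 lower and 1 higher of the 9 (median -0.66). With library totals taken without immunoglobulin genes, the log2 difference of Il1r1 was -2.00 between F1-P and B6-Y (adjusted p = 0.000527), -1.41 between F1-L and B6-O (adjusted p = 0.0435) and -1.70 over both ages (adjusted p = 0.000107, limma). Combined with leaving out B6-O replicate 3, a setting chosen after seeing the data, it was -1.81 between F1-L and B6-O (adjusted p = 0.00144) and -1.91 over both ages (adjusted p = 3.49e-06). That rescaling does not account for a change in the mix of cells, whose part in the Il1r1 values was not tested.

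Il1r1 has 2 annotated promoters in RefSeq, and the count per gene does not separate their transcripts. The 250 bases before each start site are shown because this gene carries the strain difference. They are the C57BL/6 reference sequence (GRCm38.p6, plus strand, chr1:40224830-40225079 and chr1:40266336-40266585). Capitals mark matches on either strand to TTNNGNAA, a C/EBP-type motif, or GGGNNTTCC, an NF-kB-type motif.
Il1r1 upstream promoter: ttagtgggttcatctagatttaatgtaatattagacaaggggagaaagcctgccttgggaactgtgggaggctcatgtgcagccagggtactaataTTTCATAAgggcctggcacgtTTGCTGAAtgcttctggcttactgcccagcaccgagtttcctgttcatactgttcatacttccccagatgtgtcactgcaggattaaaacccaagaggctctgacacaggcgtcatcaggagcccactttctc
Il1r1 downstream promoter: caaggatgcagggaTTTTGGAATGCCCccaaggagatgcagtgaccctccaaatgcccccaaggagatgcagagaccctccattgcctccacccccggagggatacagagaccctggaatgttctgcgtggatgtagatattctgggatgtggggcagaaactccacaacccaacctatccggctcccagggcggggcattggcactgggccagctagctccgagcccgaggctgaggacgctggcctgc
The upstream window held 2 matches to TTNNGNAA, starting at -154 and -133 from the start site. The downstream window held 1 match to TTNNGNAA at -236, which overlapped a match to GGGNNTTCC at -232. Of all 32851 RefSeq windows of this length, 36.8% held TTNNGNAA and 4.98% held GGGNNTTCC. A match is a description of the letters and not a bound site. The NZB and NZW sequences were not used here, and whether strain variants changed how reads aligned to the C57BL/6 genome was not tested.

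Il1r2, the decoy receptor that lies next to Il1r1 (chr1:40074079-40125231, plus strand), was at 23.1, 41.6 and 8.88 CPM in B6-Y and at 6.27, 5.43 and 1.41 CPM in F1-P. The groups did not overlap, and B6-Y replicate 2 was the highest. Il1r2 was 4.48-fold lower in F1-P (log2 -2.16, -3.52 to -0.81, adjusted p = 0.0411, limma), a call lost when F1-P replicate 2 or 3 or B6-Y replicate 1 or 2 was left out (adjusted p 0.0837 to 0.12) or limma's robust setting was used (adjusted p = 0.0827). At the older age it was at 9.4, 2.37 and 15.3 CPM in B6-O and at 9.17, 3.66 and 4.9 CPM in F1-L, which overlapped (log2 -0.34, -1.73 to 1.04). The direction turned there when B6-O replicate 3 was left out (log2 0.14, -1.17 to 1.45). Over both ages the log2 difference was -1.25 (-2.27 to -0.23) and missed the threshold (adjusted p = 0.0608, limma), or -1.01 without that replicate (-2.03 to 0.01, adjusted p = 0.114). limma called it over both ages without B6-O replicate 2 (log2 -1.58, adjusted p = 0.0175) or without B6-Y replicate 3 (log2 -1.54, adjusted p = 0.0287). With read counts, the quasi-likelihood test of edgeR (adjusted p = 0.0442, against 21.1% of all genes called), its likelihood ratio test (adjusted p = 0.0124) and DESeq2 (adjusted p = 0.00557, against 21.9%) called it as well.

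Il18rap, the accessory chain of the IL-18 receptor (chr1:40515362-40551705, plus strand), was the third receptor gene lower in F1-P. It was at 139, 155 and 109 CPM in B6-Y and at 91.7, 87.8 and 81.4 CPM in F1-P, with no overlap. The level was 1.53-fold lower (log2 -0.61, -0.96 to -0.26, adjusted p = 0.0309, limma). This call, too, was lost without F1-P replicate 2 or 3 or B6-Y replicate 1 or 2 (adjusted p 0.0862 to 0.125). It was lost as well when samples were scaled by the median of ratios, where the fold was under 1.5 (log2 -0.58, adjusted p = 0.0453, limma), and with all 12 LSK samples in one fit (adjusted p = 0.0557). At the older age the levels were 125, 107 and 83.7 CPM in B6-O against 131, 86.9 and 83.1 CPM in F1-L, and the groups overlapped (log2 -0.08, -0.61 to 0.45). The log2 difference there was -0.23 without B6-O replicate 3 (-0.74 to 0.28).

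Il18r1, the ligand-binding chain of the IL-18 receptor (chr1:40465552-40500854, plus strand), went the other way. It was at 28.3, 44.1 and 27 CPM in B6-Y and at 41.8, 52.3 and 47.5 CPM in F1-P, and B6-Y replicate 2 fell among the F1-P values. limma did not call that difference (log2 0.52, 0.05 to 1.00, adjusted p = 0.122) but did without B6-Y replicate 2 (log2 0.74, adjusted p = 0.0239). It was at 32.8, 23.1 and 22.9 CPM in B6-O and at 70.4, 43.3 and 34.9 CPM in F1-L, with no overlap. limma did not call that older-age difference (log2 0.85, adjusted p = 0.0996, or 0.76 and 0.132 without B6-O replicate 3), whereas DESeq2 did (adjusted p = 0.02, against 15.8% of all genes called), as did one limma fit of all 12 LSK samples (adjusted p = 0.0489, against 13.6%). Over both ages it was 1.61-fold higher in NZBW/F1 (log2 0.69, 0.28 to 1.09, adjusted p = 0.0147, limma). Without F1-L replicate 1 the log2 difference fell to 0.55, below the fold threshold, at an adjusted p of 0.0272, and without B6-O replicate 3 it was 0.64 (adjusted p = 0.0265, limma).

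Il1rl1 encodes ST2, the receptor of IL-33, and lies directly upstream of Il18r1 on the same strand (chr1:40429570-40465415). It was at 6.35, 39.9 and 16.5 CPM in B6-Y and at 42.3, 86.8 and 40.9 CPM in F1-P, all of which lay above B6-Y. In B6-O it was at 13.2, 8.72 and 48.3 CPM and in F1-L at 46.9, 24 and 37.9 CPM. B6-O replicate 3 was thus above every F1-L sample, and the log2 difference at this age was 0.93 (-0.45 to 2.30, adjusted p = 0.342, limma). The difference was 3.11-fold at the younger age (adjusted p = 0.0949, limma) and 2.43-fold over both ages (log2 1.28, 0.27 to 2.30, adjusted p = 0.0554), neither past the threshold. With totals taken without immunoglobulin genes it was called over both ages (log2 1.30, adjusted p = 0.0482, limma). Without B6-O replicate 3 the log2 difference was 1.63 over both ages (adjusted p = 0.00961) and 1.62 between F1-L and B6-O (adjusted p = 0.0166, limma). Without B6-Y replicate 2 it was 1.59 over both ages (adjusted p = 0.017) and 2.26 between F1-P and B6-Y (adjusted p = 0.0137).

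Transcripts of T, natural killer and innate lymphoid cells, which carry IL-18 receptors and in part ST2, also differed between the strains. The sum of 11 such genes was 299, 379 and 346 CPM in F1-P and 520, 277 and 243 CPM in F1-L, led by Ncr1. It was 62.3, 97.8 and 107 CPM in B6-Y, led by Nkg7, and 89, 90.4 and 184 CPM in B6-O. All 11 genes had reads in every LSK sample, and every NZBW/F1 sum exceeded every C57BL/6 sum. F1-L replicate 1, highest in this sum, was also the highest in Il18r1, at 70.4 CPM. B6-O replicate 3, highest of the C57BL/6 samples in the sum, was the lowest LSK sample in Il18r1, at 22.9 CPM. The sum of that replicate was led by Gata3 at 72.5 CPM, against 22.1 and 22.5 CPM in the other B6-O samples. The sum of 8 basophil and mast cell genes, cells that also carry ST2, was 11.5 to 45.8 CPM in NZBW/F1 LSK and 13.3 to 40.8 CPM in C57BL/6 LSK. The part of these cells in the Il18r1, Il18rap and Il1rl1 values was not tested.

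In all, 3 of the 10 genes were called between F1-P and B6-Y, all lower, against 16.2% of all 14380 genes tested. Between F1-L and B6-O 1 gene was called, against 11.6% of 14381 genes, and without B6-O replicate 3 there were 2 (Il1r1 and Il1rl1), against 16.2% of 14116. Over both ages 2 were called, 1 in each direction, against 19% of 15084 genes, and without that replicate 3 (Il1r1, Il1rl1 and Il18r1), against 20.3% of 14956. The median log2 fold change of the 10 genes was -0.30, 0.16 and -0.04 in these comparisons, beside -0.04, -0.03 and -0.03 for all genes tested. Without B6-O replicate 3 it was 0.16 and -0.05 in the last pair. With 10 genes, none of these counts sets the members apart from the background, and the 3 at the younger age became 1 without F1-P replicate 2 or 3 or B6-Y replicate 1. No member was called in the test of whether the strain difference changed with age, in which limma called 0% of the 15084 genes. There 3.92% of all genes, and no member, had an unadjusted p under 0.05, and edgeR's likelihood ratio test and DESeq2 called 10 and 29 genes, again with no member among them. limma still called no gene without B6-O replicate 3, and Il1r2 then had an unadjusted p under 0.05 (log2 2.31, adjusted p = 0.801).

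**Figure D2:**
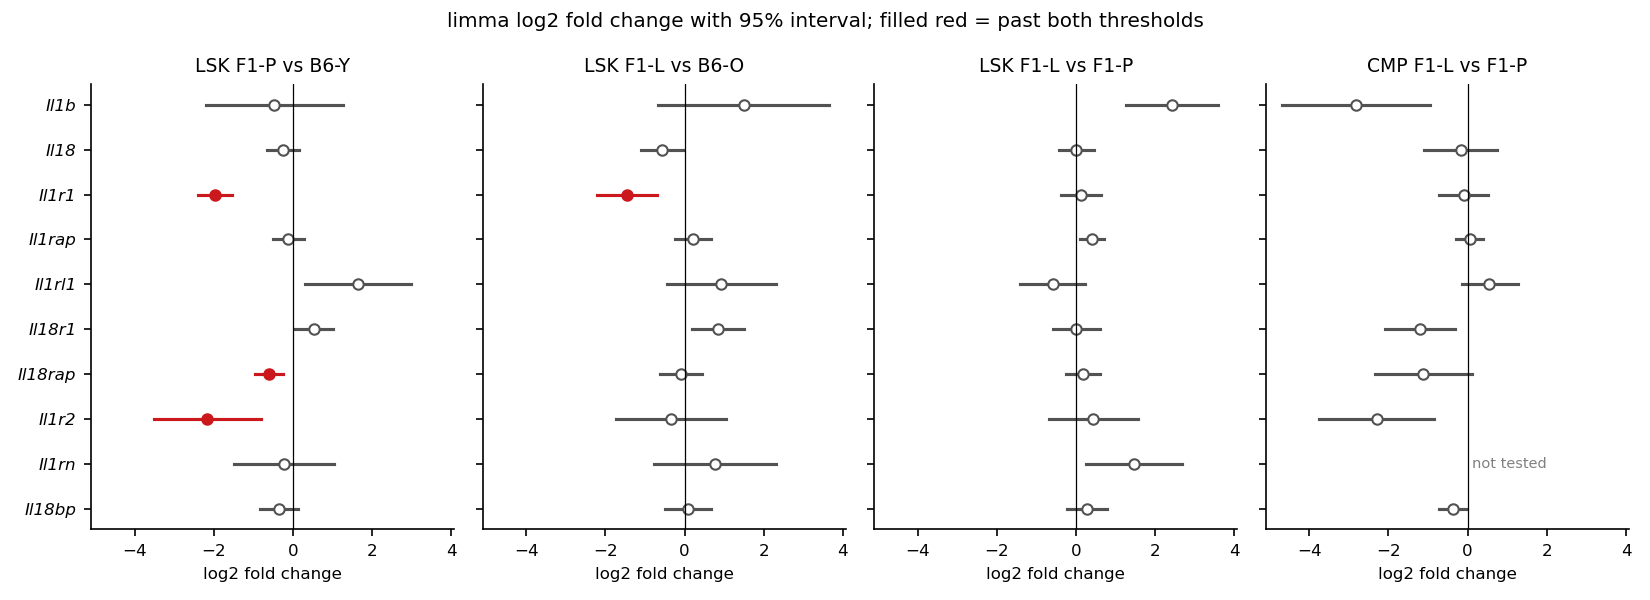
limma log2 fold change (x axis) with its 95% interval for each gene in 4 comparisons; filled red marks a gene past both thresholds and open grey a gene that was not. Il1r1 is the gene called at both ages between the strains, and Il1b lies above 0 in LSK and below 0 in CMPs between F1-L and F1-P.

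The 5 receptor genes described above and Il1rl2, the receptor of the IL-36 cytokines, lie together on chromosome 1 on the plus strand, within 478 kb from the start of Il1r2 to the end of Il18rap. The strain difference over both ages changed sign inside this cluster. It was negative at Il1r2, Il1r1 and Il1rl2 (log2 -0.44, -0.84 to -0.04, adjusted p = 0.0918), positive at Il1rl1 and Il18r1, and negative again at Il18rap (log2 -0.35, -0.65 to -0.04, adjusted p = 0.0863, limma). Of these, Il1r1 and Il18r1 were past the thresholds. Without B6-O replicate 3 the signs were the same, with -0.57 at Il1rl2 (adjusted p = 0.0167) and -0.42 at Il18rap (adjusted p = 0.033), both under the fold threshold, and Il1rl1 was past both thresholds as given above. The flanking genes gave a log2 difference of -0.29 at Map4k4 (adjusted p = 0.176), -0.57 at Slc9a2 (adjusted p = 0.0491) and -0.04 at Mfsd9 (adjusted p = 0.891). Slc9a2, at group means of 1.98 to 5.14 CPM, did not reach the fold threshold, but was called without F1-P replicate 1 (log2 -0.72, adjusted p = 0.00985) and without B6-O replicate 3 (log2 -0.62, adjusted p = 0.0457). In the latter fit Map4k4 (-0.38, adjusted p = 0.0544) and Mfsd9 (-0.15, adjusted p = 0.453, limma) were not. The library kit does not keep the strand of a transcript, so reads where neighbouring genes overlap cannot be assigned to one of them.

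**Figure D3:**
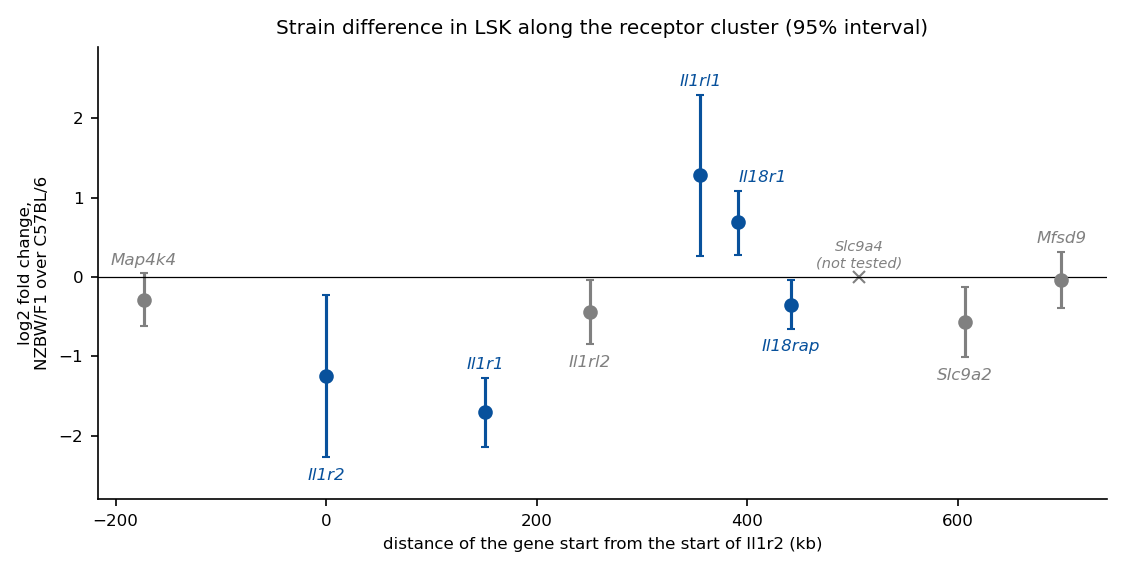
Strain difference in LSK over both ages (log2 fold change of NZBW/F1 over C57BL/6 with its 95% interval) against the distance of each gene's start from the start of Il1r2 in kb; blue marks the 5 receptor genes of the family and grey the other genes. The difference is -1.70 at Il1r1 and 0.69 at Il18r1, on either side of 0.

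Il1rap, the accessory chain shared by the IL-1 and IL-33 receptors (chr16:26581704-26730117, plus strand), did not follow its partners. It was at 18.1, 17.9 and 14.1 CPM in B6-Y and at 14.6, 14.9 and 16.3 CPM in F1-P. The strain difference over both ages was log2 0.05 with an interval of -0.21 to 0.31, or -0.02 without B6-O replicate 3. F1-L LSK were at 22.3, 20.9 and 18 CPM, all above F1-P, a 1.31-fold difference (log2 0.39, 0.09 to 0.70) that limma did not call (adjusted p = 0.287).

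Il18, one of the ligands (chr9:50554827-50581840, plus strand), had group means in LSK of 10.1 ± 1.56 CPM in B6-Y, 13 ± 2.13 in B6-O, 8.26 ± 0.613 in F1-P and 8.44 ± 1.81 in F1-L (SD, n = 3). Its F1-P values of 7.67, 8.23 and 8.89 CPM lay just below those of B6-Y, at 9.42, 8.98 and 11.9 CPM. At the older age it was at 6.37, 9.26 and 9.7 CPM in F1-L, all below B6-O at 12.9, 10.9 and 15.1 CPM, and limma did not call the difference (log2 -0.57, -1.10 to -0.05, adjusted p = 0.151), or -0.46 without B6-O replicate 3. Over both ages it was 1.33-fold lower in NZBW/F1 (log2 -0.41, -0.71 to -0.11, adjusted p = 0.0389, limma), which is under the fold threshold of 1.5. Leaving that replicate out gave -0.36 (adjusted p = 0.0641), and leaving out F1-P replicate 1 gave -0.39 (adjusted p = 0.0694, limma). Il18bp, which neutralises IL-18 (chr7:102014885-102018690, minus strand), had group means of 8.77 to 11.7 CPM in LSK and a strain difference of log2 -0.13 (-0.48 to 0.23), or -0.09 without that replicate.

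Il1b and its antagonist Il1rn had the widest log2 differences of the 10 genes between F1-L and F1-P in LSK, neither of them called by limma. Il1b (chr2:129364570-129371139, minus strand) was at 35.5, 9.42 and 29.3 CPM in F1-L LSK and at 1.85, 4.2 and 4.03 CPM in F1-P LSK. Each F1-L sample was above each F1-P sample. In B6-Y it was at 2.76, 21.3 and 1.38 CPM and in B6-O at 9.37, 1.01 and 23.7 CPM, so both C57BL/6 groups held a sample within the F1-L range. Il1b was 5.36-fold higher in F1-L LSK than in F1-P LSK (log2 2.42, 1.26 to 3.59, unadjusted p = 0.0017, limma) but did not pass the adjusted threshold (adjusted p = 0.172).

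Il1rn (chr2:24336853-24351494, plus strand) was at 11.5, 3.62 and 2.16 CPM in F1-L LSK and at 0.412, 1.23 and 1.75 CPM in F1-P LSK, again with no overlap. The difference was 2.76-fold (log2 1.47, 0.25 to 2.68, adjusted p = 0.307, limma). In B6-Y it was at 0.496, 5.1 and 0.516 CPM and in B6-O at 2.15, 0.632 and 5.95 CPM. The high samples, B6-Y replicate 2 and B6-O replicate 3, were those that were also highest in Il1b.

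limma called none of the 10 genes between F1-L and F1-P LSK, where it called 4 genes, 0.0279% of the 14332 tested. At an unadjusted p under 0.05 there were 3 members, Il1b, Il1rn and Il1rap, all higher in F1-L, against 12.8% of all genes. The likelihood ratio test of edgeR on the recovered reads, which is the model the authors named, called 4.58% of the genes and 2 members, Il1b (log2 2.88, adjusted p = 9.71e-05) and Il1rn (log2 2.35, adjusted p = 0.0431). DESeq2 called the same 2 members, against 5.12% of all genes, and edgeR's quasi-likelihood test called none. Between B6-O and B6-Y limma called 0% of the 14005 genes and hence no member, and 6.62% of all genes but no member had an unadjusted p under 0.05. Leaving out B6-O replicate 3, limma called 48 of 13705 genes (0.35%), again no member, and Il1r2 had an unadjusted p under 0.05 (log2 -1.87, adjusted p = 0.339). With all samples the likelihood ratio test and DESeq2 called 114 and 207 genes, none of them a member.

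The window before the Il1b start site is shown because its log2 difference between F1-L and F1-P LSK was the widest of the 10 genes, although limma did not call it. It spans chr2:129371140-129371389 on the minus strand (RefSeq, GRCm38.p6), and capitals mark TTNNGNAA and the TATA-box letters TATAAA.
Il1b promoter: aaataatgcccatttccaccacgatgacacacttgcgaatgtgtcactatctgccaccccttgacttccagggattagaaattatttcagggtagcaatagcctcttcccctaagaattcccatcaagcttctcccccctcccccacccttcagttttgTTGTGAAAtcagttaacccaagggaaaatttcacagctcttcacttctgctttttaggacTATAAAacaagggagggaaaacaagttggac
The match to TATAAA ran from -31 to -26 and that to TTNNGNAA from -91 to -84. TATAAA stood in 12.4% of all windows on either strand. Neither GAGGAA, the core letters bound by PU.1, nor GGGNNTTCC was in this window, and 23.3% of all windows held GAGGAA. This says nothing of factors bound outside these 250 bases.

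In CMPs the order of F1-L and F1-P was the opposite. Il1b was at 3.6, 37.3 and 24 CPM in F1-P CMPs and at 1.91, 0.671 and 1.64 CPM in F1-L CMPs. Il1r2 was at 1.25, 10.3 and 7.99 CPM in F1-P and at 0.0909, 0.258 and 0.398 CPM in F1-L, that is 2, 5 and 8 reads. Il1rn was at 0.48, 7.81 and 12.4 CPM in F1-P and at 0.136, 0.103 and 0.249 CPM in F1-L, that is 3, 2 and 5 reads. No F1-L value reached the lowest F1-P value for any of these 3 genes, but F1-P replicate 1 was far below the other F1-P samples for each. Without the share of all genes that separated in this way, this does not set the 3 genes apart.

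Il1b was 7.01-fold lower in F1-L CMPs (log2 -2.81, -4.68 to -0.94, adjusted p = 0.394) and Il1r2 4.92-fold lower (log2 -2.30), and limma did not call Il1b. Il1r2 was tested only because its F1-P samples exceeded 1 CPM, so its fold is a description and no test of it is given. Il1rn was left out by the filter of at least 1 CPM in at least 3 samples. Without the filter its log2 difference was -2.27 (adjusted p = 0.413, limma).

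The IL-18 receptor chains and the IL-18 inhibitor were lower in F1-L CMPs as well, by smaller margins. Il18r1 was at 2.35, 4.55 and 8.15 CPM in F1-P and at 1.36, 1.14 and 1.74 CPM in F1-L (log2 -1.21, -2.09 to -0.33, adjusted p = 0.422). Il18rap was at 15.8, 39.2 and 55.1 CPM in F1-P and at 14.9, 9.03 and 22.2 CPM in F1-L, which overlapped (log2 -1.12, adjusted p = 0.536). Il18bp was at 6.67, 7.28 and 8.42 CPM in F1-P and at 5.73, 5.26 and 5.67 CPM in F1-L (log2 -0.36, adjusted p = 0.503, limma). None of the 3 was past the threshold.

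Il1r1, Il1rap, Il1rl1 and Il18 overlapped between the CMP groups. Il1r1 was at 16.8, 18.2 and 32.7 CPM in F1-P CMPs and at 19.4, 19.3 and 21.8 CPM in F1-L CMPs (log2 -0.10, -0.71 to 0.52). Il1rl1 was at 74.8, 52.4 and 34.1 CPM in F1-P and at 73.2, 92.6 and 63.8 CPM in F1-L (log2 0.55, -0.15 to 1.26). Il18 was at 0.576, 1.63 and 3.33 CPM in F1-P and at 1.59, 0.826 and 1.64 CPM in F1-L. The Il18r1 group means of 5.01 and 1.41 CPM in CMPs stood beside 26.3 to 49.5 CPM in LSK, and those of Il18 at 1.85 and 1.35 CPM beside 8.26 to 13 CPM, in tables normalised separately.

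limma called none of the 9 members tested in CMPs, where it called 1 gene, 0.00774% of 12926. At an unadjusted p under 0.05 there were 3 members, Il1b, Il18r1 and Il18bp, all lower in F1-L, against 9.8% of all genes. Il1r2 is left out of the members' counts here because it entered the test only through its F1-P samples. The likelihood ratio test called 2.38% of the genes and 2 members, Il1b (log2 -3.97, adjusted p = 0.00162) and Il18r1 (log2 -1.86, adjusted p = 0.0286, edgeR). DESeq2 called the same 2, against 2.72% of all. Without F1-P replicate 1, limma itself called Il1b (log2 -3.73, adjusted p = 0.0114) and Il18r1 (log2 -1.57, adjusted p = 0.0364), in a fit that called 434 of 12774 genes (3.4%), 396 of them lower. Leaving out any other CMP sample, where limma called 0 genes, gave an adjusted p of 0.743 to 0.996 for Il1b and 0.759 to 0.996 for Il18r1.

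Il1b and Il1rn, and in CMPs Il1r2, were high in many of the samples in which neutrophil genes were high. All 11 mature neutrophil genes were higher in F1-L LSK and lower in F1-L CMPs at an unadjusted p under 0.05, with median log2 differences of 3.00 and -4.21, and limma called none in either. Without CMP F1-P replicate 1 it called all 11 lower in F1-L CMPs (median -5.63), in the same fit that called Il1b. That fit also called lower 4 of 9 monocyte and macrophage genes and 4 of 7 B and plasma cell genes. With all samples, limma called none of the monocyte genes (9 of 9 lower, median -0.52, none at an unadjusted p under 0.05). Nor did it call any of the B and plasma cell genes (5 of 8 lower at an unadjusted p under 0.05, median -1.98). Among the stromal genes, Col1a1 was at 6.63, 8.65 and 8.46 CPM in F1-P CMPs and at 0.0995 CPM or less in F1-L. Col1a1 and Cxcl12 passed the filter only through their F1-P samples, so limma's call of Col1a1 is no support. The monocyte sum, led by F13a1, was 182, 430 and 686 CPM in F1-P CMPs and 329, 164 and 485 CPM in F1-L CMPs, which overlapped. The B and plasma cell sum, at 111, 304 and 411 CPM in F1-P and 120, 71.5 and 125 CPM in F1-L, overlapped as well. Between the strains over both ages none of the 11 genes had an unadjusted p under 0.05 (median log2 0.24, or 0.74 without B6-O replicate 3). Il1rn followed their sum in LSK: B6-Y replicate 2, with 5441 CPM of neutrophil genes, had 5.1 CPM of Il1rn, and B6-Y replicates 1 and 3, with 499 and 485 CPM, had 0.496 and 0.516 CPM. Over the 12 LSK samples the genes most like Il1rn were Mmp9 (r = 0.990), Cxcr2 (r = 0.990) and Rhou (r = 0.989), of which the first pair is in the neutrophil list. CMP F1-P replicate 1, with 315 CPM of neutrophil genes, was the F1-P sample with 3.6 CPM of Il1b, against 37.3 and 24 CPM in those with 6453 and 8442 CPM.

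Il1b departed from that order in LSK. F1-L replicate 3 had 29.3 CPM of Il1b with 1983 CPM of neutrophil genes, whereas F1-L replicate 2 had 9.42 CPM with 4905 CPM. The summed level of 10 monocyte and macrophage genes, led by Ly6c2 in the NZBW/F1 samples, was 783 CPM in replicate 3, 428 CPM in replicate 2 and 642 CPM in replicate 1, but it was also 406, 699 and 836 CPM in F1-P. Ly6c2 carried these sums and was the 1 gene of the list that was lower in F1-L, at 234, 302 and 405 CPM against 330, 605 and 663 CPM in F1-P. The other 8 of the 9 genes tested were higher in F1-L LSK, 6 of them at an unadjusted p under 0.05 and none called by limma, with log2 differences over the 9 of -0.73 to 2.08. Csf1r, the receptor that defines the monocyte lineage, was at 96.4, 24.8 and 104 CPM in F1-L replicates 1, 2 and 3 and at 19.6, 10.1 and 33.8 CPM in F1-P. In B6-Y it was at 58.1, 51.9 and 33.8 CPM, beside 2.76, 21.3 and 1.38 CPM of Il1b, and in B6-O at 19.8, 14.3 and 41.4 CPM. C1qb (2.25 against 3.14 CPM) and C1qc (2.56 against 4.25 CPM) were lower in F1-L replicate 3 than in replicate 2, while the other genes of the list were higher. The genes most like Il1b over the 12 LSK samples were Fpr2 (r = 0.954), C5ar1 (r = 0.934) and Tlr13 (r = 0.931), the first pair being receptors of neutrophils and monocytes. The part of mature cells in the Il1b, Il1rn, Il1r2 and CMP Il18r1 values was not tested.

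**Figure D4:**
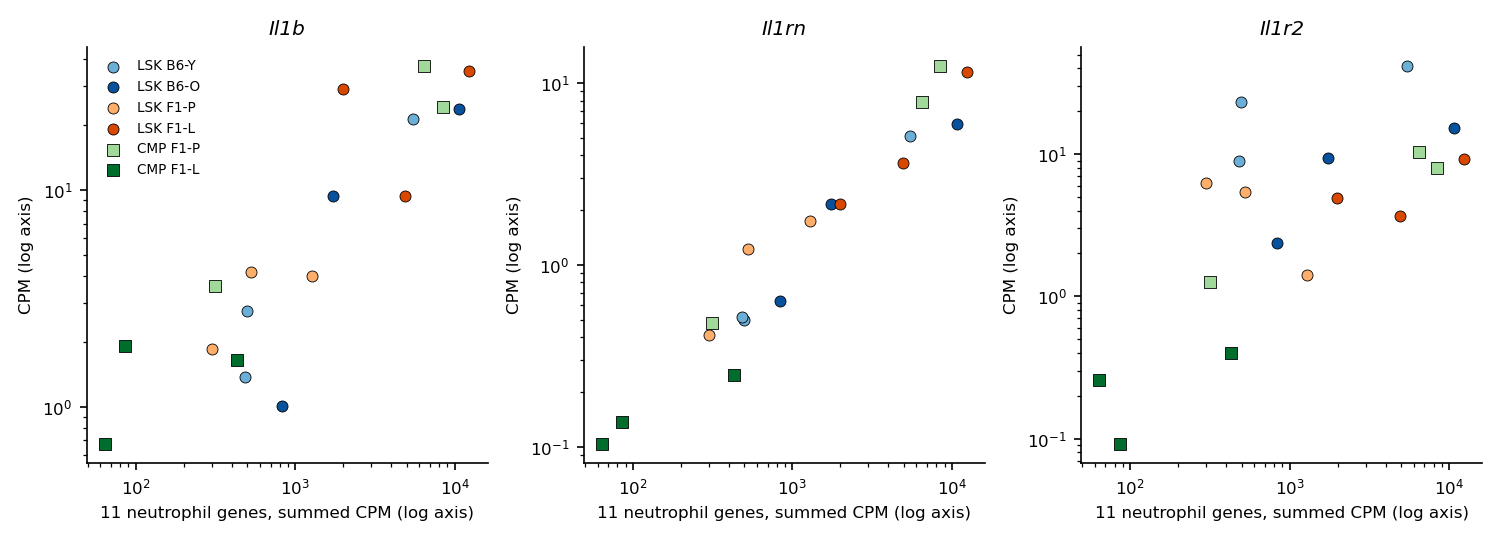
Level of Il1b, Il1rn and Il1r2 (CPM, log axis) against the summed CPM of 11 mature neutrophil genes (log axis) in each sample; circles are LSK and squares CMPs, which come from tables normalised separately. Il1rn rises with the neutrophil sum across samples, while F1-L LSK replicate 3 has 29.3 CPM of Il1b at a sum of 1983 CPM.

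The other members kept different company over the 12 LSK samples, which share their 2 strains, so that any gene differing by strain resembles another. The genes most like Il1r1 were Pole2 (r = 0.977), Gm42047 (r = 0.973) and Zfp932 (r = 0.964), and those most like Il1r2 were Il4ra (r = 0.982), Map3k8 (r = 0.938) and Plekho2 (r = 0.929). Il1rl1 was most like Cysltr1 (r = 0.976), Ptpn13 (r = 0.970) and Il9r (r = 0.968). Il18r1 was most like Ptprc (r = 0.975), the pan-leucocyte gene of CD45, which was at 479 to 967 CPM in F1 LSK and 305 to 545 CPM in C57BL/6 LSK. These correlations were taken over 11331 genes with a mean of at least 5 CPM and describe these samples only.

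Whether a receptor or ligand shifted relative to its inhibitor was asked with 3 ratios in LSK. The log2 ratio of Il1r1 to Il1r2, each as CPM + 1, was 2.01, 1.20 and 3.05 in B6-Y and 1.78, 1.52 and 3.57 in F1-P. In B6-O it was 3.06, 4.79 and 1.37 and in F1-L 1.30, 2.19 and 2.42. The groups overlapped, and the strain difference of -0.45 did not pass an exact two-sided permutation test within ages (p = 0.515, adjusted over the 3 ratios 0.66). The lower Il1r1 of NZBW/F1 LSK thus came with no detectable change of this ratio at n = 3 per group. Leaving out B6-O replicate 3 gave a difference of -0.87 (exact permutation p = 0.24). For Il1b to Il1rn the difference was 0.23 (exact permutation p = 0.66) and for Il18 to Il18bp it was -0.29 (exact permutation p = 0.26, each 0.66 when adjusted), with 400 arrangements each and a smallest possible p of 0.005. Without that replicate they were 0.37 (exact permutation p = 0.565) and -0.27 (exact permutation p = 0.31). Il1rn was as low as 0.412 CPM in LSK (F1-P replicate 1), and at such levels the added 1 shrinks the ratio of Il1b to Il1rn.

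In CMPs the ratio of Il1r1 to Il1r2 was 2.99, 0.76 and 1.90 in F1-P and 4.23, 4.01 and 4.03 in F1-L. The F1-L values all exceeded those of F1-P, with Il1r1 overlapping and Il1r2 at 8 reads or fewer per F1-L sample. This ratio was not tested in CMPs, where an exact permutation test of 3 against 3 samples cannot give a p below 0.1.

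**Figure D5:**
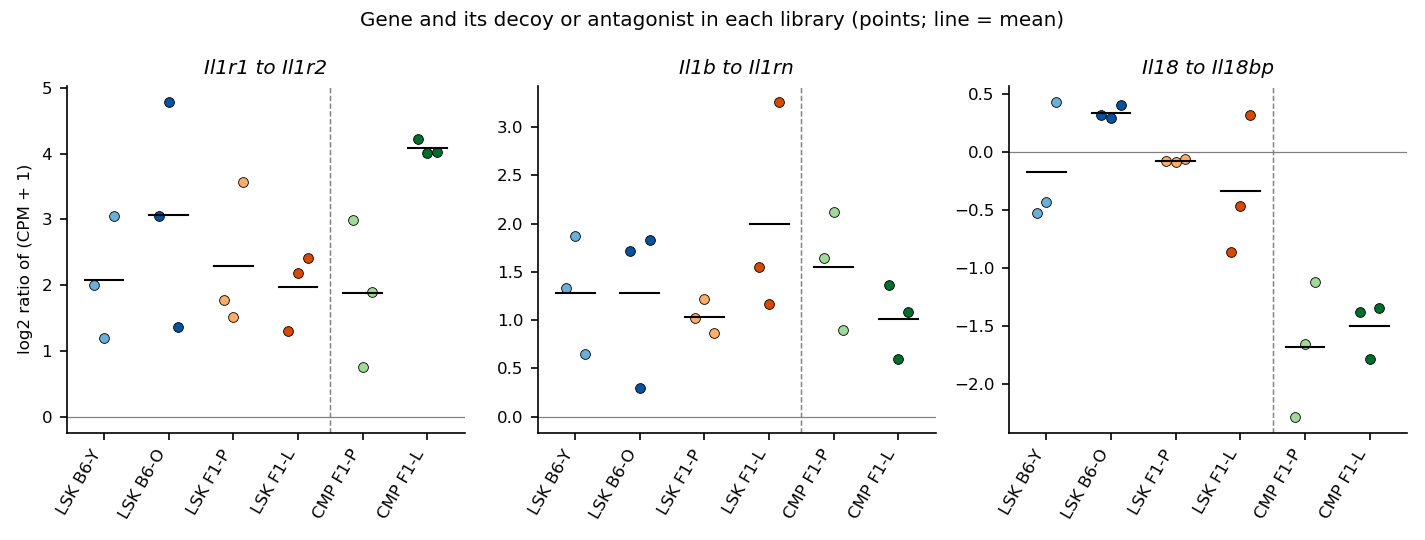
log2 ratio of each gene to its decoy or antagonist (CPM + 1) in every sample; points are samples, lines are group means, n = 3 per group, and the dashed line separates the LSK from the CMP table. In LSK, NZBW/F1 and C57BL/6 samples of the same age overlap in all 3 ratios, and Il1r1 to Il1r2 in F1-L CMPs lies at 4.01 or above.

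Among 13 genes of inflammasomes and cytokine processing, all tested in LSK, 3 were called between the strains at each age and over both ages, against 16.2%, 11.6% and 19% of all genes. Pycard encodes ASC, the adaptor that links sensors to caspase-1. It was at 25.2 ± 5.11 CPM in B6-Y and 31.3 ± 7.27 in B6-O against 9.12 ± 1.19 in F1-P and 9.15 ± 0.783 in F1-L (SD, n = 3). Its log2 difference over both ages was -1.50 (adjusted p = 1.09e-05, limma), and it was called at each age. Nek7, a kinase needed by NLRP3, was 1.82-fold higher in NZBW/F1 over both ages (adjusted p = 0.00182), and Nlrp1b, a sensor, 2.28-fold higher (adjusted p = 7.93e-05, limma). Nlrp1b has near copies, and reads could be split among them. Nlrp1a, one of these, had means of 9.64 ± 1.09 CPM in B6-Y and 9.74 ± 2.65 in F1-P. The median log2 difference of the 13 genes was -0.01. The same 3 genes were called over both ages without B6-O replicate 3, with log2 differences of -1.42 for Pycard, 0.83 for Nek7 and 1.11 for Nlrp1b, against 20.3% of all genes. Between F1-L and B6-O, Nlrp3 (log2 1.49, adjusted p = 0.0409) and Mefv (log2 1.98, adjusted p = 0.0275, limma) were then called as well.

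The caspase-1 gene Casp1 had means of 33.9 to 42 CPM in the 4 LSK groups and Gsdmd, whose product forms the exit pore, 68.9 to 93.3 CPM, neither called in any comparison. Nlrp3, the sensor most tied to IL-1b release, was at 64.9 ± 36.9 CPM in F1-P CMPs and at 10.1 ± 7.39 CPM in F1-L CMPs (log2 -2.64, adjusted p = 0.4, limma). None of the 13 genes was called between F1-L and F1-P in LSK or CMPs.

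Of 16 genes that carry the signal from the receptors, all tested, none was called in any comparison. Irak2 was called higher in F1-L than in B6-O without B6-O replicate 3 (log2 1.06, adjusted p = 0.0249, limma). Irak3, an inhibitor of the pathway, was at 40.6 ± 11.5 CPM in F1-L LSK, 16.3 ± 3.8 in F1-P, 24.3 ± 0.41 in B6-Y and 36 ± 1.46 in B6-O. The difference between F1-L and F1-P was 2.38-fold (adjusted p = 0.172, limma). Myd88 had means of 29 to 40.6 CPM in LSK and Traf6 62.1 to 71.4 CPM.

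Of 10 genes known to respond to IL-1 or IL-18, 7 were tested over both ages in LSK and 3 were called, all higher in NZBW/F1, against 19% of all genes called. They were Nfkbia, the NF-kB inhibitor that NF-kB itself induces (3.1-fold, adjusted p = 0.00287), Tnfaip3, which encodes A20 (2.5-fold, adjusted p = 0.0283, limma), and Ifng (2.01-fold). Ifng passed the filter only through its NZBW/F1 samples, so its fold is a description and its call is no support. Without B6-O replicate 3 the log2 differences of these 3 were 1.91, 1.62 and 1.19, and Cxcl2 was called as well (log2 1.23, adjusted p = 0.046, limma). Leaving out F1-P replicate 1, Tnfaip3 was not called over both ages (log2 1.20, adjusted p = 0.0592, limma), and Ifng was not between F1-P and B6-Y (log2 1.01). Ifng was low, at 3.42 ± 0.443 CPM in F1-P and 1.18 ± 0.684 in B6-Y. Ncr1, the natural killer cell gene named above, was at 43.6 to 124 CPM in NZBW/F1 LSK and 2.75 to 6.79 CPM in C57BL/6 LSK, and its part in the Ifng values was not tested. Ptgs2, the prostaglandin synthase COX-2, was lower in F1-P than in B6-Y (0.566-fold, adjusted p = 0.0386, limma). At the older age Ptgs2 was at 89 ± 67 CPM in F1-L and at 75.2 ± 21.5 CPM in B6-O. Between F1-L and B6-O limma called 0 of the 7 response genes tested, against 11.6% of all genes. Without B6-O replicate 3 it called 3 higher, Ifng among them, against 16.2% of all genes.

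In CMPs 6 of these 10 genes were tested, and all 6 had an unadjusted p under 0.05 with lower levels in F1-L, against 9.8% of all genes, but limma called none. Without CMP F1-P replicate 1 it called 4, Nfkbia, Nfkbiz, Cxcl2 and Zc3h12a, against 3.4% of all genes. With all samples Nfkbia was at 339 ± 84.4 CPM in F1-P and 115 ± 29.9 in F1-L (adjusted p = 0.327), Nfkbiz at 173 ± 89.9 and 26.9 ± 10.6 (adjusted p = 0.352), and Cxcl2 at 47.3 ± 28.7 and 4.56 ± 3.89 CPM. The median log2 difference of the 6 genes was -1.81, beside 0.04 for all genes and -4.21 for the neutrophil list.

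Of 15 symbols of other family genes, older symbols included, 5 were in the LSK table. Il1a, the other agonist ligand of IL1R1, averaged 0.189 to 0.289 CPM in the LSK groups and was not tested. Sigirr, an inhibitory receptor, averaged 68.3 to 96.8 CPM and was not called (log2 -0.33 over both ages, adjusted p = 0.0757, limma, or -0.23 and 0.121 without B6-O replicate 3). Il1f9, an IL-36 cytokine, averaged 9.3 ± 11 CPM in F1-L LSK and 11 ± 8.95 CPM in F1-P CMPs against 0.425 ± 0.502 CPM in F1-L CMPs. None of the tested genes of this list was called in any comparison.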

How the data were processed

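RNA of sorted LSK and CMPs was sequenced in 18 mouse samples. The authors prepared TruSeq libraries, aligned reads with STAR 2.6 to mm10 (GRCm38) and used edgeR. The deposited values are a signal, CPM scaled by a sample factor, from which low genes had been removed by a rule not given in the sources used here. All values (100.000%, to within 0.1 of a read) were whole multiples of 1 read, so reads could be recovered. Positions came from GENCODE M21, which gave a symbol to 19770 LSK and 18421 CMP genes.

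Tests used genes that reached 1 CPM in 3 or more of the samples compared, on log2(CPM + 1) with limma 3.58.1 (trend, R 4.3.3) and Benjamini-Hochberg adjustment over all genes. edgeR 4.0.16 and DESeq2 1.42.0 on recovered reads, other pseudocounts, filters, scalings, a replicate block and leaving out each sample were alternatives. Fits were tested on simulated data. Ratios and figures used Python 3.11.15 and scipy 1.17.1. Comparisons that share a group share its samples. No pair of samples within a group was a duplicate (lowest chi-square per degree of freedom 9.87), and pairs across groups were not checked in this way. Reads on immunoglobulin genes were 16.8% to 36.6% of NZBW/F1 LSK libraries and 0.301% to 4.76% of C57BL/6 LSK libraries.

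The members, lists and tests were chosen with earlier results of these data known. The named genes were the 10 members, list genes past the thresholds with a mean of at least 1 CPM, up to 4 genes per list with the lowest p in a comparison, the 3 genes most correlated with a member, and the neighbours of the receptor cluster. Casp1, Gsdmd, Traf6, Nlrp1a, the single marker genes and list genes called only without a sample fell outside the rule or were chosen after their values were seen.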

Additional observations from a re-analysis of the deposited data

Results flagged for a closer look

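Il1b and Il1rn had differences of opposite sign between F1-L and F1-P in the 2 cell types, none of them called by limma (adjusted p for Il1b 0.172 in LSK and 0.394 in CMPs, and for Il1rn 0.307 in LSK and 0.413 in CMPs). In LSK every F1-L sample lay above every F1-P sample, with a difference of mean log2(CPM + 1) of 2.42 for Il1b and 1.47 for Il1rn. In CMPs every F1-L sample lay below every F1-P sample, with differences of -2.81 for Il1b and -2.27 for Il1rn, which was below the filter there and was fitted without it. The share of all genes that separated in this way is not given, so the separation describes these values only. All 11 mature neutrophil genes had the same signs, with median log2 differences of 3.00 in LSK and -4.21 in CMPs, and their part in these values was not tested. The difference between the cell types was not tested. The groups hold 3 samples each, so no test for single outlying samples was made.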

How the results depend on the processing

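With 3 samples per group, 1 library decided many calls. The number of members called between F1-P and B6-Y was 3, and 1 to 3 when each sample was left out (927 to 2229 of all genes called, against 2331). Between F1-L and B6-O it was 1 of 1667 genes called, 0 to 2 when each sample was left out (448 to 2285 genes), 2 with DESeq2 (2279 genes) and 2 with all 12 LSK samples in one fit (2050 genes). Over both ages it was 2 and ranged from 1 to 3 when each sample was left out (2421 to 3120 genes, against 2869). Between F1-L and F1-P, the likelihood ratio test of edgeR gave 2 members in LSK and 3 in CMPs, as did DESeq2, against 0 in limma. The CMP count of 3 holds Il1r2, which passed the filter only through F1-P and is no support. In limma, leaving out a CMP sample gave 0 to 2 (0 to 434 genes, against 1). Correlations of the deviations of samples with the same number ran from -0.352 to 0.467 in LSK and from -0.454 to 0.622 in CMPs. Between F1-P and B6-Y they were all positive (0.32, 0.303 and 0.057), but replicate 3 of either group correlated more with another number, and with 1 pair below 0.1 the numbers were not taken as pairs. There a replicate block gave 2787 genes called against 2331 and 4 members, with Il1rl1 added (adjusted p = 0.00863), and 1 between F1-L and B6-O, where Il18r1 (adjusted p = 0.0373) was called and Il1r1 (adjusted p = 0.0585) was not. The cause was not tested. In all other comparisons the block left the number of members called as it was, while the genes called went from 4 to 0 between F1-L and F1-P in LSK, from 1 to 0 in CMPs and from 2869 to 2896 over both ages. The log2 ratio of Il1b to Il1rn ranged from -0.08 to 0.44 when each sample was left out, with a sign change without F1-L replicate 3 (-0.08) or B6-O replicate 2 (-0.01). The log2 fold change of Il1r1 kept its sign and its call between F1-P and B6-Y (-2.10 to -1.78) and over both ages (-1.91 to -1.60) under every alternative run. For Il1rn and Il1r2 in F1-L CMPs, at 2 to 8 reads per sample, depth limits the size of the difference. Il1r2 in CMPs had no value without an F1-P sample, since it then failed the filter.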
